A study of Oryctolagus cuniculus with 30 samples.

Results

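Vocal folds injected with the hydrogel labelled VFLP (man) were compared with vocal folds injected with the hydrogel labelled VFLP (au), written here VFLP_man and VFLP_au. The samples were chosen by their titles and comprised 12 of the 30 libraries of the study, which were the left and right folds of 3 animals in VFLP_man and of 3 animals in VFLP_au. All 6 were New Zealand white rabbits in which the superficial mucosa of both folds had been stripped, and 20 µL of hydrogel was injected into each fold 7 days after the injury. Mucosa was dissected and frozen 28 days after treatment. According to the series title the hydrogels derive from vocal fold lamina propria, and the labels do not say how the 2 preparations differ. The remaining 9 animals of the study, 3 injected with type I collagen (Col1), 3 injured without injection (injury_only) and 3 uninjured (control), enter only as context and through the shared estimate of spread. The 12 libraries carried the same batch letter, D, and animal numbers distinguish the 6 animals, so that p-values here measure the spread between animals. The Col1 libraries also carried D. All control libraries, and all injury_only libraries but the right fold of animal 1, carried C, so the levels of those groups can also differ by batch.

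The lamina propria is the soft connective tissue under the vocal fold epithelium, and its collagens, elastic fibres, hyaluronan and small proteoglycans give the fold its vibration. After injury, fibroblasts deposit collagen and fibronectin, and matrix metalloproteinases and their inhibitors remodel the deposit. Skeletal muscle, the thyroarytenoid, lies directly beneath the lamina propria. In whole mucosa, fewer cells of a type and less RNA per cell cannot be told apart.

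The libraries held 19.3 to 30.5 M reads on genes (median 25.1 M), with 23.7 to 30.5 M in VFLP_man and 19.3 to 28.3 M in VFLP_au. Across genes, log2 values of the left and right fold of an animal correlated at a median of 0.968 (6 pairs), those of different VFLP_man animals at 0.94, those of different VFLP_au animals at 0.938 and those of a VFLP_man with a VFLP_au library at 0.933. These correlations are across genes and describe likeness alone. The expected tissue was present, with the squamous keratin gene KRT13 at 10627 ± 3497 CPM in VFLP_man and 11323 ± 2378 CPM in VFLP_au, the basal keratin gene KRT5 at 1389 ± 163 CPM in VFLP_man and 1598 ± 354 CPM in VFLP_au, and the mesenchymal gene VIM at 184 ± 36 CPM in VFLP_man and 275 ± 75.9 CPM in VFLP_au (SD, n = 3 animals each). CPM is the count scaled to the library total, with TMM factors applied, and the reads of both folds of an animal were summed, so that the animal is the replicate.

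Of 17815 genes tested, 9 passed an adjusted p of 0.05 in edgeR's quasi-likelihood test, which is 0.0505% of the genes. All 9 fell in VFLP_man relative to VFLP_au, and 0 rose. At an unadjusted p under 0.05, 1066 genes were lower in VFLP_man (5.98%) and 423 were higher (2.37%). DESeq2 called 387 genes (2.27%), of which 337 were lower (1.97%) and 50 higher (0.293%), and these held all 9. In each of the 9 genes the mean was lowest in VFLP_man and highest in uninjured control folds among the 5 groups of the study. The genes were picked for low levels in VFLP_man, the controls were in batch C, and the means were not adjusted for batch. How many of all genes share this order was not counted.

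Several of the 9 genes act in the use of fuel. FABP3, a fatty acid binding protein of heart and skeletal muscle, stood at 0.904, 2.10 and 0.746 CPM in the 3 VFLP_man animals, against 23.8, 7.15 and 20.4 CPM in the 3 VFLP_au animals, a 13.7-fold lower level (log2 fold change -3.78, SE 0.53, adjusted p = 0.0296 by edgeR). Every VFLP_man animal lay below every VFLP_au animal, with VFLP_au animal 2 the lowest of its group. PFKFB1, an enzyme that makes and removes the glycolytic regulator fructose-2,6-bisphosphate, measured 0.495, 0.790 and 0.317 CPM in VFLP_man and 9.96, 2.65 and 9.27 CPM in VFLP_au (log2 fold change -3.77, SE 0.52, adjusted p = 0.0296 by edgeR). SLC25A34, a member of the mitochondrial carrier family, measured 0.921, 2.03 and 1.48 CPM in VFLP_man and 10.8, 7.48 and 9.20 CPM in VFLP_au (log2 fold change -2.64, SE 0.40, adjusted p = 0.0438 by edgeR). As for FABP3, neither gene overlapped between the groups.

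AK4, an adenylate kinase of the mitochondrial matrix that interconverts nucleotides, had the narrowest spread of the 9 genes relative to its mean in both groups. It stood at 4.45, 3.54 and 3.98 CPM in VFLP_man, against 21.5, 18.9 and 16.3 CPM in VFLP_au, a 4.74-fold lower level (log2 fold change -2.25, SE 0.31, adjusted p = 0.0296 by edgeR). CA9, a membrane carbonic anhydrase that is a widely used marker of low oxygen, measured 0.102, 0.137 and 0.0793 CPM in VFLP_man and 2.28, 0.718 and 1.09 CPM in VFLP_au (log2 fold change -3.65, SE 0.55, adjusted p = 0.0438 by edgeR). CA9 was the one gene of the listed hypoxia and glycolysis genes to pass. Of the other genes of that list with the smallest p, ALDOA, a glycolytic aldolase, had 552, 742 and 567 CPM in VFLP_man and 2340, 1138 and 2387 CPM in VFLP_au (adjusted p = 0.173 by edgeR), and the groups overlapped for the hexokinase gene HK2 and the pyruvate dehydrogenase kinase gene PDK1.

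RELT, a receptor of the tumour necrosis factor receptor superfamily, had the smallest p of all genes. It measured 0.512, 0.456 and 0.349 CPM in VFLP_man and 3.86, 2.23 and 2.99 CPM in VFLP_au, which is 6.88-fold lower in VFLP_man (log2 fold change -2.78, SE 0.32, adjusted p = 0.0196 by edgeR). PPM1J, a protein phosphatase of the PP2C family, measured 0.716, 2.05 and 0.666 CPM in VFLP_man and 13.9, 6.41 and 12.9 CPM in VFLP_au (log2 fold change -3.28, SE 0.47, adjusted p = 0.0300 by edgeR). VFLP_man animal 2 was the highest of its group for PPM1J, FABP3, PFKFB1 and SLC25A34. LOC100343225, which RefSeq gives no symbol, lay outside the naming rule and is named here after its values were seen. It averaged 0.112 ± 0.0709 CPM in VFLP_man and 4.78 ± 2.72 CPM in VFLP_au (SD, n = 3 animals each; adjusted p = 0.0196 by edgeR).

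**Figure D1:**
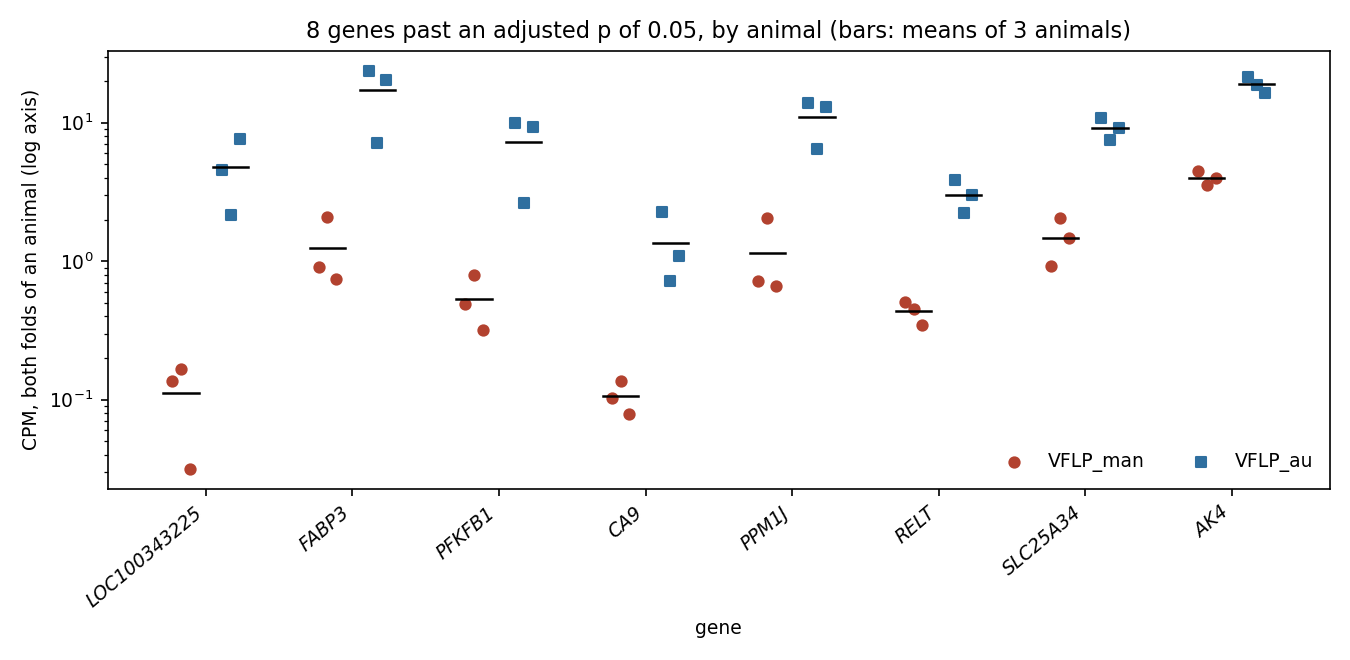
CPM (log axis) of 8 of the 9 genes past an adjusted p of 0.05, with 1 point per animal, VFLP_man as red circles left of VFLP_au as blue squares, and bars at the mean of 3 animals. The groups are apart for each gene shown, with AK4 between 3.54 and 4.45 CPM in VFLP_man and between 16.3 and 21.5 CPM in VFLP_au.

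The values within each side are given as a description, since the 9 genes were called on the sums of these same folds. In left folds alone the VFLP_man and VFLP_au values did not overlap for 8 of the 9 genes, CA9 being the exception, and in right folds alone for all 9. Of all genes tested, 8.77% lay lower without overlap in left folds and 8.73% in right folds. Across all 6 against 6 libraries 5 of the 9 did not overlap, among them FABP3, RELT, AK4 and LOC100343225, and 0.932% of all genes were lower in this way. A test of whether the difference between hydrogels itself differed between left and right folds gave 0 of 16757 genes in edgeR (1044 at an unadjusted p under 0.05, and no other tool was run).

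The number of genes that passed depended on single animals. In edgeR it was 0 without VFLP_man animal 1 (1728 at an unadjusted p under 0.05), 139 without VFLP_man animal 2, 1 without VFLP_man animal 3, 0 without VFLP_au animal 1 (1051 at an unadjusted p under 0.05), 107 without VFLP_au animal 2 and 3 without VFLP_au animal 3. The log2 fold change of each of the 9 genes stayed below 0 in all of these fits.

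Reads on skeletal muscle genes differed between the hydrogels. They took 0.0665%, 0.472% and 0.228% of gene reads in the 3 VFLP_man animals, against 1.37%, 0.596% and 1.22% in the 3 VFLP_au animals. The means were 0.255 ± 0.204% in VFLP_man and 1.06 ± 0.41% in VFLP_au (SD, n = 3 animals each), and Col1, injury_only and control animals averaged 0.579%, 1.61% and 5.51%. The control libraries and most injury_only libraries were in another batch, C. By library, left and right folds of VFLP_man held 0.0492% and 0.0878% in animal 1, 0.0299% and 0.844% in animal 2, and 0.00787% and 0.460% in animal 3. The left and right folds of VFLP_au held 0.815% and 2.00% in animal 1, 0.162% and 1.16% in animal 2, and 0.242% and 2.21% in animal 3. The right fold held more than the left in 6 of 6 animals, and within each side every VFLP_man fold lay below every VFLP_au fold.

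**Figure D2:**
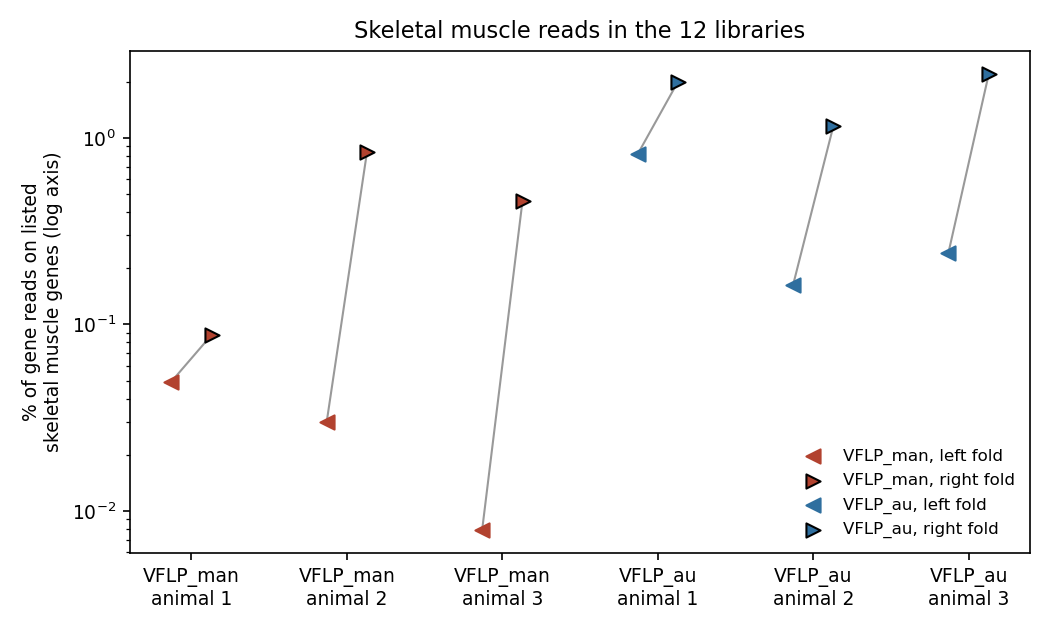
Percentage of gene reads on the listed skeletal muscle genes (log axis) in the 12 libraries, by animal, with VFLP_man in red on the left and VFLP_au in blue on the right, left folds as left-pointing and right folds as right-pointing triangles, and a line joining the folds of an animal. Right folds lie above left folds in 6 of 6 animals, and the VFLP_man folds lie lower on each side, at most at 0.0492% against at least 0.162% in left folds and at most at 0.844% against at least 1.16% in right folds.

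Of 30 listed muscle genes 24 were tested, and the other 6, among them CKM, were not analysed here. None of the 24 passed in edgeR, and 17 were lower in VFLP_man at an unadjusted p under 0.05, against 5.98% of all genes tested. With no overlap between animals 15 were lower, against 9.13% of all genes tested. DESeq2 called 15 of the 24, all lower, against 1.97% of all genes called lower. The median log2 fold change was -2.46, against -0.02 over all genes, and the list's mean level lay between 2.71 and 5.13 log2 CPM in VFLP_man and between 5.48 and 7.07 log2 CPM in VFLP_au. None of the 24 genes had 0 reads in either group.

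Muscle genes of several kinds lay lower in VFLP_man without passing the threshold. PYGM, muscle glycogen phosphorylase, measured 25.0, 103 and 42.3 CPM in VFLP_man and 518, 209 and 600 CPM in VFLP_au (adjusted p = 0.0735 by edgeR). RYR1, the calcium release channel of the sarcoplasmic reticulum, measured 27.2, 134 and 56.8 CPM in VFLP_man and 599, 261 and 495 CPM in VFLP_au, and CACNA1S, the voltage sensor that opens it, measured 4.35, 22.0 and 11.6 CPM and 89.3, 38.6 and 79.5 CPM (adjusted p = 0.0849 by edgeR for both). MYL3, a slow muscle myosin light chain, was at 0.529, 0.228 and 0.0317 CPM in VFLP_man and 0.893, 4.55 and 27.5 CPM in VFLP_au (adjusted p = 0.0849 by edgeR). In all 4 genes the animals did not overlap, and VFLP_man animal 2 was the nearest to VFLP_au except for MYL3.

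A few muscle genes stood the other way, and they are named here after their values were seen. The embryonic and perinatal myosin heavy chain genes MYH3 and MYH8 and the myosin binding protein gene MYBPC2 were the 3 of 24 with a fold change above 0. MYH8 had 7.91, 124 and 145 CPM in VFLP_man against 43.3, 45.5 and 34.9 CPM in VFLP_au, and MYH3 had 6.43, 48.1 and 18.5 CPM against 10.5, 7.61 and 13.98 CPM, so that the groups overlapped. In left folds alone their log2 fold changes were -3.42 for MYH8, -1.50 for MYH3 and -1.65 for MYBPC2.

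Of 15 tested regulators of muscle formation and growth, 0 passed in edgeR, 4 were lower at an unadjusted p under 0.05 (5.98% of all genes) and the median log2 fold change was -0.81, moving to between -1.35 without VFLP_man animal 2 and -0.37 without VFLP_au animal 3. MSTN, the secreted inhibitor of muscle growth myostatin, measured 0.256, 1.46 and 0.254 CPM in VFLP_man and 6.08, 2.41 and 12.7 CPM in VFLP_au (adjusted p = 0.0849 by edgeR). MYF6, a myogenic transcription factor, measured 1.98, 14.4 and 8.44 CPM in VFLP_man and 39.6, 19.0 and 37.3 CPM in VFLP_au (adjusted p = 0.244 by edgeR). PAX7, which marks muscle stem cells, overlapped between the groups.

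Among the 9 genes that passed, most were also higher in the right than in the left fold of VFLP_au animals, as muscle reads were. FABP3, PFKFB1, PPM1J, RELT, SLC25A34, CA9 and LOC100343225 were higher in the right fold of 3 of 3 VFLP_au animals. In VFLP_man this held in 3 of 3 animals for PFKFB1, PPM1J and LOC100343225, and in 2 of 3 for FABP3, RELT, SLC25A34 and CA9. AK4 was higher in the left fold of all 3 VFLP_au animals, at 22.4, 21.9 and 22.8 CPM in left folds and 20.6, 14.8 and 8.94 CPM in right folds. In VFLP_man it was higher in the right fold of 1 of 3 animals. How many of all genes were higher in right folds was not counted. With the animals' muscle levels entered as a covariate, 0 genes passed in edgeR and 2320 had an unadjusted p under 0.05. In that fit the log2 fold change was -2.53 for AK4, -2.58 for RELT and -3.8 for CA9. It was -3.09 for FABP3, -2.92 for PFKFB1, -2 for SLC25A34, -2.33 for PPM1J and -4.07 for LOC100343225. AK4 had an adjusted p of 0.166 there in edgeR. Values of this fit are given beside only some of the other genes, and a gene without one may also have moved. The part of muscle in the difference between the hydrogels was not tested beyond this fit.

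**Figure D3:**
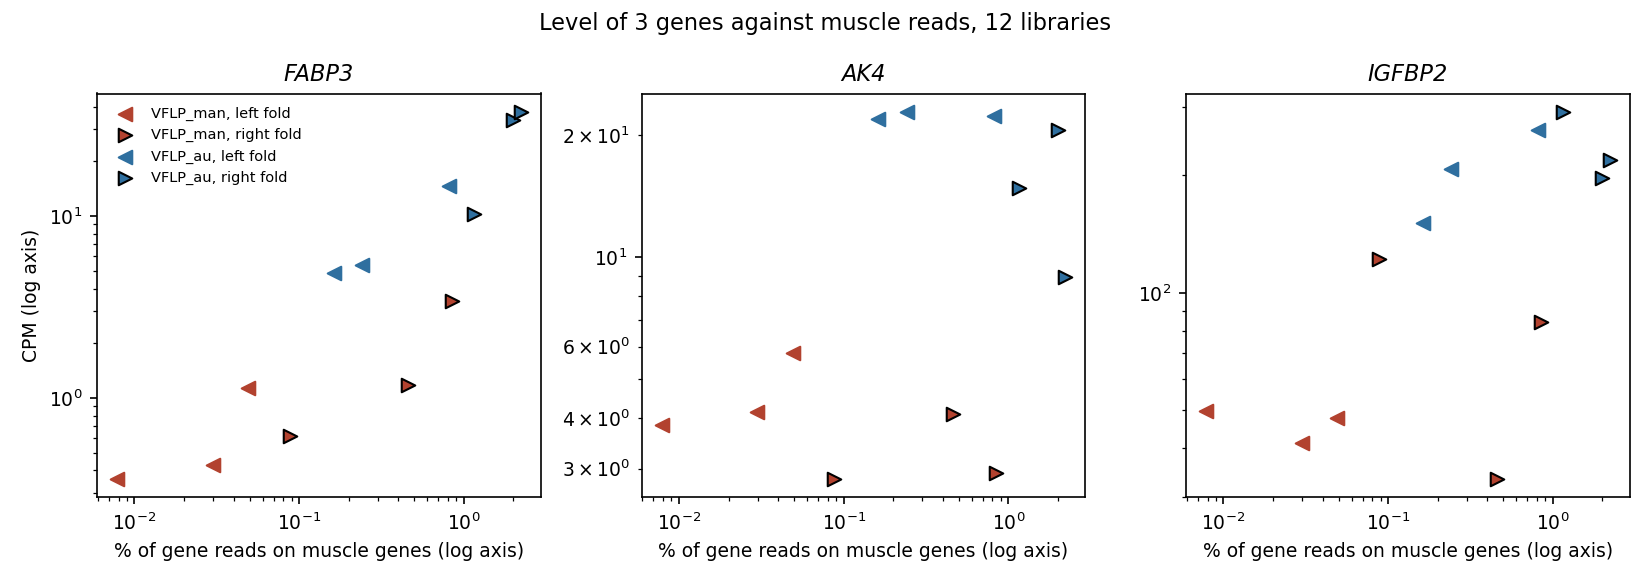
CPM of FABP3, AK4 and IGFBP2 (log axes) against the percentage of gene reads on muscle genes (log axis) in the 12 libraries, VFLP_man in red and VFLP_au in blue, left-pointing triangles for left folds and right-pointing triangles with a black edge for right folds. For FABP3 the VFLP_man libraries lie between 0.358 and 3.41 CPM and the VFLP_au libraries between 4.86 and 37.4 CPM. For AK4 the VFLP_au right folds, at 8.94 to 20.6 CPM, lie below the VFLP_au left folds.

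Genes of the mitochondrial respiratory chain and ATP synthase (oxidative phosphorylation) lay slightly lower in VFLP_man. Of 23 tested members, 0 passed in edgeR, 9 were lower at an unadjusted p under 0.05 (5.98% of all genes), and 21 were lower with no overlap between animals (9.13%). All 23 fold changes were below 0, as were 52.4% of all genes, with a median log2 fold change of -0.43 and a range of -0.89 to -0.20. ATP5MC1, a subunit of the ATP synthase ring, measured 62.7, 47.8 and 62.2 CPM in VFLP_man and 110, 114 and 94.2 CPM in VFLP_au (adjusted p = 0.158 by edgeR). The complex I gene NDUFS3 measured 56.1, 53.5 and 57.2 CPM in VFLP_man and 83.3, 78.2 and 81.7 CPM in VFLP_au (adjusted p = 0.475 by edgeR), and the complex I gene NDUFS7 and the complex II gene SDHA also did not overlap between animals. In left folds alone ATP5MC1, NDUFS3 and NDUFS7 overlapped and SDHA did not, and in right folds alone none of these genes overlapped. With the muscle level as a covariate the median was -0.24 and 1 of 23 was lower at an unadjusted p under 0.05 (1416 of all 17815 genes).

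Fat and capillary genes included some wide differences. Of 12 tested adipocyte genes, 0 passed in edgeR, 5 were lower at an unadjusted p under 0.05 (5.98% of all genes) and 5 were lower with no overlap (9.13%). The median was -0.20, or -0.66 without VFLP_man animal 1, and 3 members had fold changes above 0. LPL, the lipase that releases fatty acids from lipoproteins, measured 3.26, 6.45 and 0.841 CPM in VFLP_man and 72.2, 13.8 and 51.4 CPM in VFLP_au (log2 fold change -3.71, adjusted p = 0.0838 by edgeR). CD36, a fatty acid transporter that fat, muscle and capillary endothelium share, measured 1.36, 1.96 and 2.92 CPM in VFLP_man and 11.1, 4.79 and 9.51 CPM in VFLP_au (adjusted p = 0.174 by edgeR). The lists for adipocytes and endothelium both hold CD36 and FABP4. Of 21 tested endothelial genes, 0 passed in edgeR and 2 in DESeq2 (2.27% of all genes). At an unadjusted p under 0.05 in edgeR 4 were lower (5.98% of all genes), and 8 were lower with no overlap (9.13%). The median log2 fold change was -0.62, and -0.34 without VFLP_au animal 1. CA4, a carbonic anhydrase of capillaries and muscle, had 0 reads in VFLP_man and 16 reads in VFLP_au, at least 6.53-fold lower in VFLP_man when 3 counts over the group stand in for 0, a bound that covers counting error only (adjusted p = 0.105 by edgeR). CD34, a marker of endothelium and stromal cells, had 28.7, 28.1 and 26.1 CPM in VFLP_man and 70.9, 36.5 and 40.9 CPM in VFLP_au.

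By DESeq2, 36 of the 741 tested genes of all 44 lists were called, against 2.27% of all genes (1.97% lower and 0.293% higher). Among them were 15 muscle genes, 3 adipocyte genes, and 2 each of the regulators of muscle formation, endothelium, growth factors and contractile genes. Oxidative phosphorylation, fibroblasts and small proteoglycans held 1 each. All of these were lower in VFLP_man, and the called genes of some other lists are not broken down here. The matrix proteases held 1 gene called higher, and the Wnt pathway 1 higher and 1 lower. In the ciliated, elastic fibre and complement lists 0 were called by DESeq2.

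**Figure D4:**
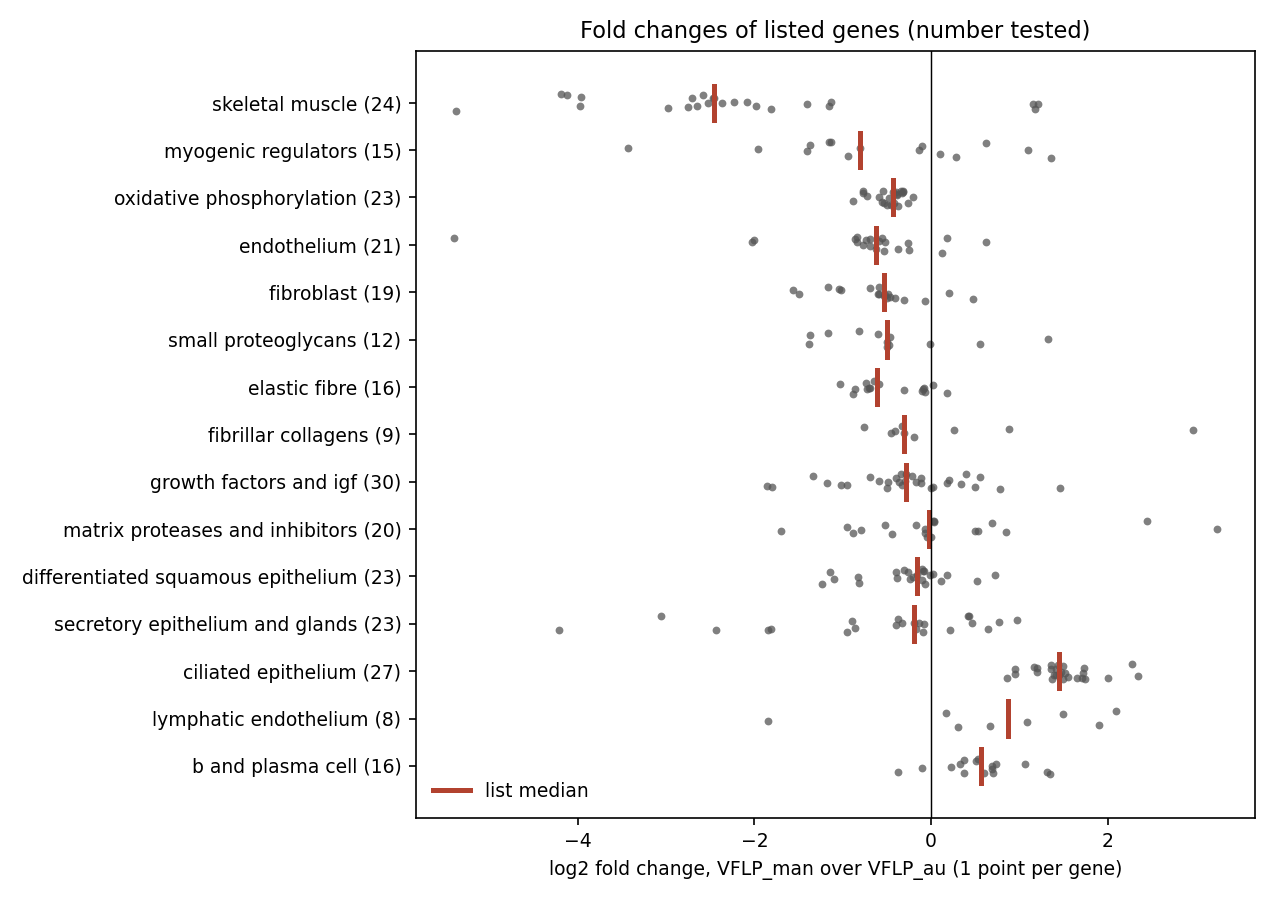
Log2 fold change of VFLP_man over VFLP_au for each tested gene of 15 lists, 1 point per gene with the list median as a red line and the number tested in brackets. Skeletal muscle genes lie lowest, at a median of -2.46, the 23 oxidative phosphorylation genes lie between -0.89 and -0.20, and the 27 ciliated epithelium genes lie above 0.

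Genes of the lamina propria's connective tissue cells lay lower in VFLP_man without passing the threshold. Of 19 tested fibroblast genes, 17 had fold changes below 0 (52.4% of all genes), 5 were lower with no overlap (9.13%) and the median log2 fold change was -0.54. None of the 19 passed in edgeR, and 4 were lower at an unadjusted p under 0.05 (5.98% of all genes). Their share of gene reads overlapped, at 0.144 to 0.183% in VFLP_man animals and 0.170 to 0.219% in VFLP_au animals. DCN, the small proteoglycan decorin that binds collagen fibrils and TGF-beta, measured 162, 152 and 152 CPM in VFLP_man and 448, 310 and 282 CPM in VFLP_au, a 2.24-fold lower level (log2 fold change -1.16, SE 0.35, adjusted p = 0.266 by edgeR). The animals did not overlap, and the right folds did, at 62.4 to 185 CPM in VFLP_man and 123 to 670.2 CPM in VFLP_au. SFRP2, a secreted modulator of Wnt signals, measured 3.99, 5.01 and 5.52 CPM in VFLP_man and 19.9, 11.7 and 10.995 CPM in VFLP_au (log2 fold change -1.56, adjusted p = 0.166 by edgeR). SCARA5, a scavenger receptor of fibroblasts, was lower without overlap between animals and PI16, a marker of adventitial fibroblasts, overlapped. By side SFRP2 and SCARA5 each overlapped in left and in right folds. In VFLP_au animal 1 SFRP2 stood at 39.1 CPM in the right fold and 2.46 CPM in the left.

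The small proteoglycans and elastic fibre genes stood likewise. Of 12 tested small proteoglycan genes, 10 had fold changes below 0 (52.4% of all genes) at a median of -0.50, and CHAD, the cartilage leucine-rich protein chondroadherin, had 0.938, 0.896 and 0.920 CPM in VFLP_man and 3.61, 1.47 and 2.04 CPM in VFLP_au (adjusted p = 0.241 by edgeR). ASPN, asporin, stood the other way, with 16.8, 10.2 and 4.71 CPM in VFLP_man and 4.11, 3.41 and 5.15 CPM in VFLP_au, and overlapped. Of 16 tested elastic fibre genes, 14 had fold changes below 0 (52.4% of all genes) and 7 were lower with no overlap (9.13%), at a median of -0.62, and of -0.18 without VFLP_au animal 1. Their share of gene reads overlapped, at 0.116% on average in VFLP_man and 0.119% in VFLP_au. FBLN2, fibulin 2, measured 2.95, 3.78 and 2.98 CPM in VFLP_man and 10.2, 4.86 and 4.78 CPM in VFLP_au (adjusted p = 0.328 by edgeR). FBLN1, EFEMP2 and MFAP4, which bind elastin or microfibrils, also did not overlap between animals, whereas elastin itself, ELN, did, at 49.8, 61.3 and 34.6 CPM in VFLP_man and 105, 69.9 and 43.6 CPM in VFLP_au (adjusted p = 0.749 by edgeR). By side FBLN2 overlapped in left and in right folds, FBLN1 in left folds, and EFEMP2 and MFAP4 in right folds.

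Of 9 tested fibrillar collagen genes, 0 passed in edgeR, 6 had fold changes below 0 (52.4% of all genes) and 1 was higher at an unadjusted p under 0.05 and without overlap (2.37% and 5.26% of all genes). That gene, named after its values were seen, was COL11A1, a minor fibrillar collagen of cartilage, with 2.85, 0.273 and 0.190 CPM in VFLP_man and 0.125, 0.147 and 0.146 CPM in VFLP_au (log2 fold change 2.97, adjusted p = 0.396 by edgeR). Its fold change rested largely on 1 library, the right fold of VFLP_man animal 1 at 6.31 CPM, against 0.123 CPM in the left fold of that animal. The left folds overlapped between the groups. The classical scar genes of the preset group overlapped between the hydrogels and did not pass. COL1A1, a chain of type I collagen, measured 119, 40.6 and 39.0 CPM in VFLP_man and 129, 57.9 and 40 CPM in VFLP_au (log2 fold change -0.19, SE 0.50, adjusted p = 0.947 by edgeR). COL3A1, the type III collagen gene, measured 269, 146 and 155 CPM in VFLP_man and 367, 214 and 135 CPM in VFLP_au (log2 fold change -0.33, SE 0.42, adjusted p = 0.874 by edgeR). In both hydrogels animal 1 was the highest for these genes. The fibronectin gene FN1, the crosslinking enzyme LOX, the matricellular gene POSTN, the hyaluronan synthase HAS2, TGFB1 and the inhibitor TIMP1 all overlapped, with log2 fold changes of -0.23, -0.68, 0.38, -0.34, -0.10 and -0.07. FN1 and HAS2 turned to 0.19 and 0.25 in left folds alone, COL1A1, TGFB1 and TIMP1 turned to 0.04, 0.16 and 0.13 in right folds alone, and POSTN turned to -0.16 with the muscle covariate. With that covariate the log2 fold changes were -1.53 for COL1A1, -1.50 for COL3A1, -1.02 for FN1 and -1.27 for LOX, with unadjusted p of 0.0192, 0.00253, 0.0317 and 0.0231 and adjusted p of 0.297, 0.233, 0.340 and 0.316 in edgeR.

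Contractile genes of myofibroblasts and smooth muscle lay lower in VFLP_man without passing. Of 18 tested, 0 passed in edgeR, 6 were lower at an unadjusted p under 0.05 (5.98% of all genes) and 8 were lower with no overlap (9.13%), at a median log2 fold change of -0.70 and of 0.02 with the muscle covariate. TPM2, a tropomyosin, measured 56.5, 277 and 153 CPM in VFLP_man and 1038, 468 and 1068 CPM in VFLP_au (adjusted p = 0.109 by edgeR). It was higher in the right than in the left fold of 3 of 3 animals in each group, as muscle reads were. Its log2 fold change was -2.41, and -0.98 with the muscle level as a covariate. Which cells the difference in this list came from was not tested. ACTA2, the actin that marks myofibroblasts, measured 10.8, 14.6 and 37.6 CPM in VFLP_man and 30.5, 23.6 and 41.8 CPM in VFLP_au and overlapped. Its log2 fold change was -0.61 (SE 0.57, adjusted p = 0.822 by edgeR), and 0.73 with the muscle level as a covariate.

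The interstitial collagenases were among the genes that lay higher in VFLP_man. MMP13, collagenase 3, measured 2.66, 1.59 and 1.89 CPM in VFLP_man and 0.291, 0.276 and 0.0728 CPM in VFLP_au (log2 fold change 3.23, SE 0.89, adjusted p = 0.211 by edgeR). MMP1, collagenase 1, measured 6.04, 4.98 and 7.81 CPM in VFLP_man and 1.22, 1.60 and 0.607 CPM in VFLP_au (log2 fold change 2.44, SE 0.89, adjusted p = 0.435 by edgeR). Neither gene passed, and for both every one of the 6 VFLP_man libraries lay above every VFLP_au library, as 0.814% of all genes did. DESeq2 gave adjusted p values of 0.00438 for MMP13 and 0.104 for MMP1. With the muscle level as a covariate their log2 fold changes were 1.62 and 1.2. Of 20 tested proteases and inhibitors, 3 were higher at an unadjusted p under 0.05, against 2.37% of all genes, and 0 were lower, and the median log2 fold change was -0.02. CTHRC1, a collagen triple helix protein that injured tissue secretes and that binds Wnt receptors, measured 4.54, 3.11 and 6.36 CPM in VFLP_man and 1.52, 1.16 and 1.75 CPM in VFLP_au, again with no overlap among the 12 libraries (log2 fold change 1.66, SE 0.44, adjusted p = 0.173 by edgeR, 0.00946 by DESeq2).

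**Figure D5:**
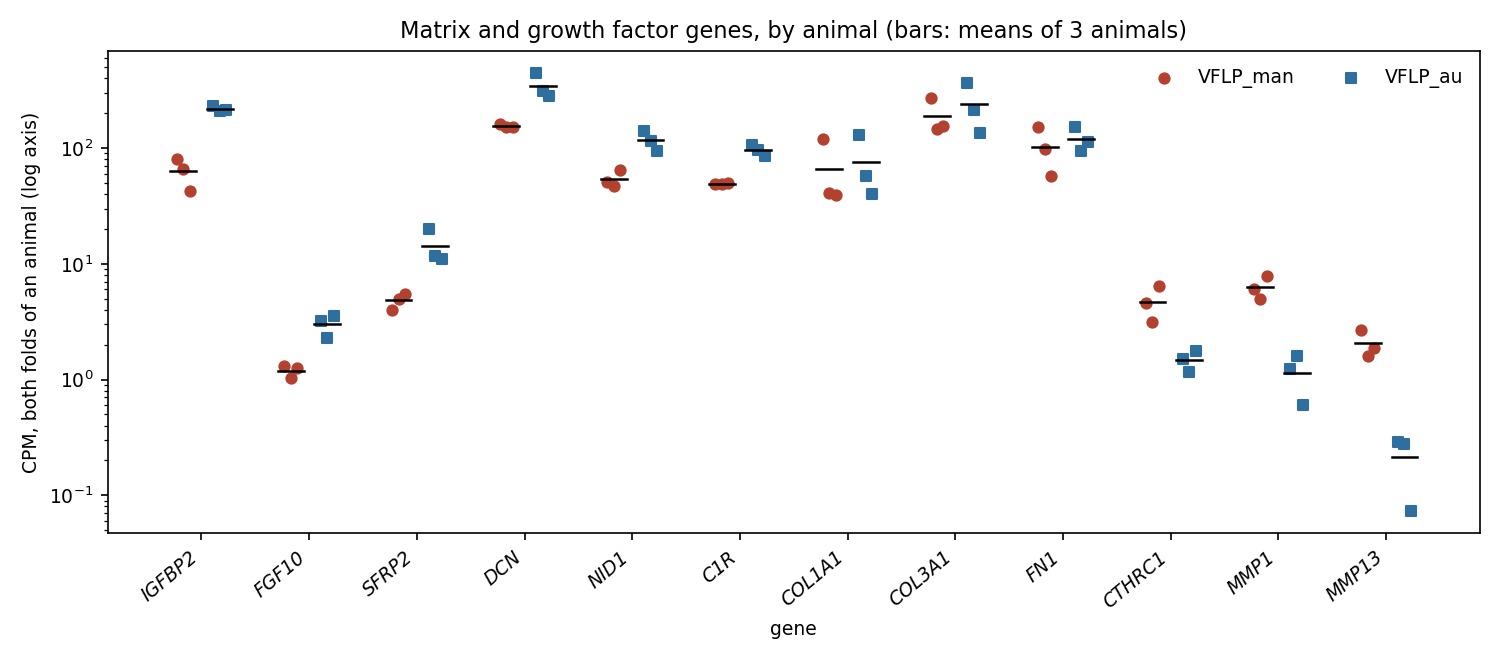
CPM (log axis) of 12 matrix, complement and growth factor genes, with 1 point per animal, VFLP_man as red circles left of VFLP_au as blue squares, and bars at the mean of 3 animals. IGFBP2, FGF10, SFRP2, DCN, NID1 and C1R lie lower in VFLP_man without overlap, CTHRC1, MMP1 and MMP13 lie higher without overlap, and COL1A1, COL3A1 and FN1 overlap.

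Growth factors and the insulin-like growth factor (IGF) system held several genes near the threshold. Of 30 tested, 0 passed in edgeR and 6 were lower at an unadjusted p under 0.05 (5.98% of all genes). With no overlap 6 were lower and 2 higher, against 9.13% and 5.26% of all genes. IGFBP2, a secreted protein that binds IGFs, measured 80.3, 65.8 and 42.1 CPM in VFLP_man and 231, 210 and 213 CPM in VFLP_au, a 3.48-fold lower level (log2 fold change -1.80, SE 0.36, adjusted p = 0.0735 by edgeR, 0.000215 by DESeq2). The 12 libraries did not overlap, at 33.3 to 122 CPM in VFLP_man and 151 to 291 CPM in VFLP_au. With the muscle level as a covariate its log2 fold change was -2.16. FGF10, which signals from mesenchyme to epithelium, measured 1.30, 1.03 and 1.25 CPM in VFLP_man and 3.22, 2.30 and 3.52 CPM in VFLP_au (adjusted p = 0.0998 by edgeR), and its relative FGF7 measured 1.83, 2.78 and 2.49 CPM and 4.26, 3.41 and 6.07 CPM (adjusted p = 0.284 by edgeR). The platelet-derived growth factor gene PDGFD was also lower without overlap between animals, and its right folds overlapped.

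Of the 34 tested Wnt pathway genes 0 passed in edgeR. At an unadjusted p under 0.05, 1 was higher and 4 were lower (2.37% and 5.98% of all genes). The secreted inhibitor FRZB measured 5.51, 12.5 and 30.5 CPM in VFLP_man and 35.2, 52.6 and 50.5 CPM in VFLP_au (adjusted p = 0.283 by edgeR), and AXIN2, a target and inhibitor of the pathway, measured 7.06, 7.80 and 4.33 CPM and 11.98, 8.29 and 9.59 CPM (adjusted p = 0.578 by edgeR). Basement membrane genes were mixed, with 8 of 20 fold changes above 0. NID1, the laminin linker nidogen 1, measured 50.5, 47.2 and 65.1 CPM in VFLP_man and 141, 114 and 94.0 CPM in VFLP_au (log2 fold change -1.11, SE 0.27, adjusted p = 0.140 by edgeR). LAMA5, a laminin chain of epithelial basement membranes, stood higher without overlap at 34.2, 46.6 and 45.7 CPM in VFLP_man and 30.6, 31.4 and 32.2 CPM in VFLP_au (adjusted p = 0.276 by edgeR). Its left folds overlapped.

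Of 14 tested complement genes, 0 passed in edgeR, 3 were lower at an unadjusted p under 0.05 (5.98% of all genes), 8 had fold changes above 0 (47.6%) and the median log2 fold change was 0.13. C1R, a protease of the first complement component, measured 48.6, 48.6 and 49.5 CPM in VFLP_man and 106, 95.4 and 84.6 CPM in VFLP_au (log2 fold change -0.97, SE 0.28, adjusted p = 0.237 by edgeR). Its partner C1S and the inhibitor SERPING1 also lay lower without overlap between animals, whereas the terminal component C6, named after its values were seen, had the highest fold change of the list at 1.61 on the log2 scale and overlapped. By side SERPING1 overlapped in left and in right folds, and C1S in left folds. None of the leukocyte genes listed passed in edgeR. The median log2 fold change was -0.02 for macrophage genes (20 tested), 0.06 for T and NK cell genes (15 tested), -0.46 for neutrophil genes (13 tested) and -0.58 for interferon response genes (17 tested). Of these genes 4 had an unadjusted p under 0.05, all lower (5.98% of all genes). Leaving out 1 animal moved the neutrophil median to between -2.36 without VFLP_man animal 1 and 0.82 without VFLP_au animal 2. The median was 0.83 for mast cell and eosinophil genes (8 tested, 6 above 0, 1 higher at an unadjusted p under 0.05 and 2 higher without overlap) and 0.30 for dendritic and Langerhans cell genes (10 tested, 7 above 0). Of all genes, 2.37% were higher at that p and 5.26% were higher without overlap. B and plasma cell genes had 14 of 16 fold changes above 0 at a median of 0.56, and of 0.13 without VFLP_man animal 1, and 0 of the 16 genes passed in edgeR or had an unadjusted p under 0.05. All 29 cell cycle genes tested had fold changes below 0 (52.4% of all genes), at a median of -0.35, and 0 passed in edgeR or had an unadjusted p under 0.05. This direction rested on VFLP_au animal 2, without which the median was 0.43, and the median was -1.11 without VFLP_man animal 1. The genes took 0.129%, 0.0499% and 0.0601% of gene reads in VFLP_man and 0.0620%, 0.184% and 0.0592% in VFLP_au.

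Ciliated cell genes lay higher in VFLP_man as a list and varied widely between animals. They took 0.0170%, 0.186% and 0.0479% of gene reads in VFLP_man and 0.0244%, 0.00378% and 0.0569% in VFLP_au, so that the groups overlapped. All 27 fold changes were above 0, as were 47.6% of all genes, at a median log2 fold change of 1.44. In edgeR 0 passed, and 2 were higher at an unadjusted p under 0.05 (2.37% of all genes). The median was 0.18 without VFLP_man animal 2, 0.88 without VFLP_au animal 2 and 2.47 without VFLP_au animal 3. MCIDAS, a regulator that starts the formation of multiciliated cells, measured 2.12, 2.37 and 1.65 CPM in VFLP_man and 0.913, 0.111 and 0.825 CPM in VFLP_au (adjusted p = 0.561 by edgeR). DEUP1 and CCNO, which act in making the many centrioles of these cells, were likewise higher without overlap between animals. Only 3 of the 27 were (5.26% of all genes). By side DEUP1 overlapped in left and in right folds, with 0.0308 CPM in the left fold of VFLP_man animal 1.

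The other epithelial lists moved less. Basal epithelium had a median log2 fold change of 0.03 (13 tested), differentiated squamous epithelium -0.16 (23 tested) and secretory epithelium and glands -0.19 (23 tested). In edgeR 0 of these passed. At an unadjusted p under 0.05, 2 squamous genes were lower and 2 secretory genes higher (5.98% and 2.37% of all genes). ECM1, a matrix protein of differentiating squamous cells, measured 189, 259 and 342 CPM in VFLP_man and 629, 850 and 375 CPM in VFLP_au (adjusted p = 0.462 by edgeR). Of the 23 secretory genes, 16 had fold changes below 0 and 7 above (52.4% and 47.6% of all genes). Among the 7, FOXA1, a transcription factor of secretory epithelium, had 62.8, 75.2 and 70.4 CPM in VFLP_man and 43.3, 34.9 and 54.9 CPM in VFLP_au. KRT8, a simple epithelial keratin also among the 7, had 441, 439 and 448 CPM and 292, 363 and 334 CPM (adjusted p = 0.486 and 0.575 by edgeR). The right folds overlapped for KRT8.

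Since 0 genes rose past the threshold in edgeR, the 5 genes with a symbol, at least 1 CPM and no overlap that had the smallest p are given. AOX4, an aldehyde oxidase, measured 39.1, 22.8 and 20.6 CPM in VFLP_man and 15.5, 9.34 and 8.76 CPM in VFLP_au (log2 fold change 1.29, SE 0.28, adjusted p = 0.0871 by edgeR). MECOM, a zinc finger transcription factor, measured 87.6, 82.4 and 71.5 CPM in VFLP_man and 54.5, 35.0 and 54.9 CPM in VFLP_au (log2 fold change 0.74, adjusted p = 0.119 by edgeR). RASSF6, of the Ras association domain family, measured 25.9, 28.03 and 25.5 CPM in VFLP_man and 14.1, 13.8 and 18.1 CPM in VFLP_au (adjusted p = 0.134 by edgeR). NUDCD2 and EYA2, the second a transcriptional coactivator and phosphatase, had log2 fold changes of 0.61 and 0.85 (adjusted p = 0.147 and 0.150 by edgeR). For MECOM, RASSF6, NUDCD2 and EYA2 all 6 VFLP_man libraries lay above all 6 VFLP_au libraries, and for AOX4 the left folds overlapped.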

How the data were processed

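RNA was sequenced by the authors from both vocal folds of each animal, using the KAPA mRNA HyperPrep kit on 100 ng of RNA (integrity above 7), 15 amplification cycles and paired reads of 100 bases, per the labels' protocols. Each deposited table gives unnormalized counts per gene, from the authors' run of STAR 2.7.10b, per the submitters' processing notes. Neither genome build nor annotation is named in the sources used here. Of the strand columns, that of read 2 was used, whose gene reads came to 98.3 to 99.9% of the unstranded gene reads in the 12 libraries. The 4 entries that name no gene (23.2 to 44.7% of all entries' counts) were left out.

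Counts of both folds of an animal were summed, so that n is 3 animals a group. All 5 groups entered one edgeR 4.0.16 fit (R 4.3.3, quasi-likelihood F test, TMM, filterByExpr at a minimum count of 10) as 16 units with batch as a covariate, since 1 injury_only animal has a fold in each of the batches. The Benjamini-Hochberg adjustment ran over 17815 genes, at a threshold of 0.05. The SE is the log2 fold change's size over the square root of F, an approximation. List levels are mean log2 CPM with a prior count of 2. Levels between genes are not corrected for length. Of 16731 symbols, 15808 are in the RefSeq names. The fit was tested on simulated data.

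Genes were named by rule. First came genes that passed, had a symbol, averaged 1 CPM or more over the 6 animals and did not overlap between groups, filled to 5 by smallest p where fewer than 5 passed in a direction. Next came up to 4 members by smallest p of each list described, and last a preset group of 12 matrix genes. A few genes that the rule takes are given by direction only or left out for room, and 1 of the genes that passed is not reported here. The 44 lists (741 of 888 genes tested), the rule and the comparison were chosen with earlier results of these data known. Lists are described by counts, medians and levels, with no test of a list. Alternatives were DESeq2 1.42.0, its size factors, no filter, a replicate block, fewer groups in the fit, limma 3.58.1 voom on libraries, each side alone, unstranded counts, each animal left out, and muscle or secretory level as a covariate. Intervals and bounds cover counting error only.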

Additional observations from a re-analysis of the deposited data

Results flagged for a closer look

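Among the 6 libraries of a group, a library was picked out when its gap to the nearest other library, over the group's range, exceeded Dixon's 95% critical value. This was checked in 30 sets of 6 libraries and met in 5. The 6 libraries are the left and right folds of 3 animals and are not independent, so the critical value gives no chance rate here. FABP3 stood at 3.41 CPM in the right fold of VFLP_man animal 2, the next highest VFLP_man library being at 1.17 CPM. PPM1J stood at 3.30 CPM in the same library, the next at 0.967 CPM. That library also held the highest share of muscle reads in VFLP_man, 0.844%. Secretory epithelium and gland genes took 3.41% of gene reads in the left fold of VFLP_man animal 2, the next being 1.89%, and 6.62% in the right fold of VFLP_au animal 3, the next being 1.27%. Ciliated epithelium genes took 0.0830% of gene reads in that same VFLP_au library, the next being 0.0311%.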

How the results depend on the processing

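Against 9 genes changed, DESeq2 called 387, limma voom on libraries 26, the replicate block 4, the 9 animals of batch D 2, the secretory level as a covariate 2, and the 6 animals alone, left folds, right folds and the muscle covariate 0 each. At an unadjusted p under 0.05 these last 4 had 1401, 1342, 1501 and 2320 genes. Leaving out 1 animal gave 0 to 139 genes. Over all lists 1 gene was changed, against 36 by DESeq2, 0 with the replicate block, the 9 animals of batch D or the muscle covariate, and 0 to 10 with an animal left out. DESeq2's size factors in edgeR, no filter, no batch term and unstranded counts gave 7, 9, 7 and 9 genes. The test by side kept 0 genes in both alternatives (1163 and 1063 at an unadjusted p under 0.05). Animals with the same replicate number deviated at correlations of -0.165, -0.501 and -0.01, so the numbers share only a label and do not pair the samples.

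Of 106 genes followed, 12 changed sign in at least 1 alternative. MYH8 gave -0.91 by limma voom, and left folds alone gave -1.50 for MYH3, -3.42 for MYH8, -1.65 for MYBPC2, 0.19 for FN1 and 0.25 for HAS2. Right folds alone gave 0.04 for COL1A1, 0.16 for TGFB1 and 0.13 for TIMP1. With an animal left out, TIMP1 ranged over -0.29 to 0.10, COL1A1 over -0.94 to 0.44, FN1 over -0.64 to 0.06, COL3A1 over -0.68 to 0.12 and TGFB1 over -0.24 to 0.08. The muscle covariate gave 0.03 for DES, 0.73 for ACTA2, 0.20 for HAS2 and -0.16 for POSTN. The cause of these differences was not tested.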

Other observations

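A row without a symbol stood out among genes that lay higher in VFLP_man, and it was chosen after its values were seen. LOC100339064 measured 92.4, 68.6 and 105 CPM in VFLP_man and 13.7, 15.1 and 11.5 CPM in VFLP_au (log2 fold change 2.72, SE 0.56, adjusted p = 0.0738 by edgeR), and its 12 libraries did not overlap. Col1 animals spanned 12.6 to 66.7 CPM, injury_only animals 43.5 to 93.4 CPM and control animals 10.8 to 36.5 CPM. RefSeq pairs its number with the symbol TWF1, an actin-binding protein gene, while a separate row of the files is itself named TWF1. That row measured 72.6, 52.6 and 0.349 CPM in VFLP_man and 87.8, 97.4 and 83.1 CPM in VFLP_au, and 0.314 CPM in 1 injury_only animal. The counting could divide reads between such rows, so the level of each is uncertain.

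CLEC3A, a C-type lectin of cartilage, measured 0.119, 0.288 and 0.190 CPM in VFLP_man and 1.06, 2.03 and 5.29 CPM in VFLP_au, with no overlap among the 12 libraries (log2 fold change -3.79, adjusted p = 0.0602 by edgeR). Of the 17 tested genes of the cartilage list 0 passed in edgeR. At an unadjusted p under 0.05, 3 were lower and 1 was higher (5.98% and 2.37% of all genes). Lymphatic endothelial genes had 7 of 8 fold changes above 0 at a median of 0.88, and of 0.48 without VFLP_man animal 2. CCL21, the lymphatic chemokine that draws in dendritic cells, measured 18.9, 26.6 and 7.90 CPM in VFLP_man and 5.90, 1.36 and 7.04 CPM in VFLP_au (adjusted p = 0.416 by edgeR), and MMRN1, a secreted protein of lymphatic vessels, had 13.1, 27.4 and 6.93 CPM and 4.67, 0.958 and 5.46 CPM (adjusted p = 0.631 by edgeR). CDH19, a cadherin of Schwann cells, measured 0.119, 0.243 and 0.0952 CPM in VFLP_man and 0.810, 0.332 and 1.02 CPM in VFLP_au (adjusted p = 0.158 by edgeR), and GFRA3, a receptor of the GDNF family, stood the other way at 0.171, 0.623 and 0.666 CPM and 0.166, 0.111 and 0.170 CPM (log2 fold change 1.69, adjusted p = 0.395 by edgeR). The 15 tested nerve and Schwann cell genes had 8 fold changes above 0 and a median of 0.03.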
